A study of Mus musculus with 6 samples.

Results

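Hs6st3 and 9 other genes of heparan sulfate synthesis and editing were followed through the cell types of the mouse cerebellum. The 10 genes, of 32286 in the count tables, were Ext1 and Ext2, Ndst1, Ndst3 and Ndst4, Hs2st1, Hs6st1, Hs6st2 and Hs6st3, and Sulf2. They were taken by name. Hs6st3 was selected on its measured level in Purkinje cells (PCs), which was higher in SCA1 than in wild-type mice, so its level in PCs is given below as a description, with no test. Single-nucleus RNA-seq was available from the whole cerebellum of 6 mice at 12 weeks of age, 1 library per mouse. The 3 SCA1 mice were Pcp2-ATXN1[82Q] transgenic animals, a model of spinocerebellar ataxia type 1 on a C57BL/6 background in which a human ATXN1 coding sequence with an expanded CAG repeat is driven by the Pcp2 promoter, selectively in PCs. The 3 wild-type (WT) mice were littermates without the transgene. The cell types other than PCs are therefore not the ones this promoter targets.

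The libraries held 3354 to 10897 nuclei and 18916647 to 98366627 unique molecular identifiers (UMIs, each a counted RNA molecule), with a median of 2246.5 to 7253 UMIs per nucleus. The lowest median was that of WT mouse 2. Of 24 cell type labels deposited by the study, 13 had at least 10 nuclei in every mouse, with 45042 of 45473 nuclei. PCs (292 nuclei, 29 to 76 per mouse), granule neurons (37532), Bergmann glia (BG, 1243), velate astrocytes (VA, 1014) and oligodendrocytes (OL, 1384) were among them, as were 5 classes of Gad1 and Gad2 positive inhibitory neurons and 2 of Slc17a6 positive excitatory neurons, called here by the gene that ends their label. The thirteenth label, Dcn.Nnat, is named as endothelial by the reference it came from, but its pooled level of the fibroblast gene Dcn was 413 CPM (UMIs of a gene per 1000000 UMIs of the summed nuclei) against 1.32 CPM for the endothelial gene Cldn5, and it is called by its genes here. PCs had all 7 Purkinje marker genes in every mouse. The summed level of these 7 was 12016 to 15244 CPM in SCA1 and 16543 to 19842 CPM in WT mice, without overlap, and the part of this difference in the results on PCs was not tested.

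Heparan sulfate is a sugar chain on cell surface and matrix proteins that holds growth factors and synaptic adhesion proteins. EXT1 and EXT2 build the chain in the Golgi, NDST enzymes replace acetyl by sulfate groups on its glucosamine, HS2ST1 sulfates the neighbouring uronic acid at the 2-O position, and the HS6ST enzymes sulfate glucosamine at the 6-O position. SULF2 works outside the cell and takes 6-O-sulfates off again. Together they set which proteins a chain can bind.

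In the mm10 assembly (GRCm38), the gene of Hs6st3 spans chr14:119138341-119869815 on the + strand, 731 kb, of which 99.8% is intron. Nuclear RNA was counted over introns as well as exons, so a gene with such long introns can collect many UMIs per transcript, and levels are compared below between cell types and mice, not between genes. The annotation places 4 small genes or pseudogenes on the same strand and 1 on the other within its bounds, and how reads shared with them were counted was not given in the sources used here. The 250 bases before its RefSeq start (chr14:119138015-119138264, + strand) are shown because the start is unusually rich in CG dinucleotides, which are in capitals:

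Hs6st3 upstream: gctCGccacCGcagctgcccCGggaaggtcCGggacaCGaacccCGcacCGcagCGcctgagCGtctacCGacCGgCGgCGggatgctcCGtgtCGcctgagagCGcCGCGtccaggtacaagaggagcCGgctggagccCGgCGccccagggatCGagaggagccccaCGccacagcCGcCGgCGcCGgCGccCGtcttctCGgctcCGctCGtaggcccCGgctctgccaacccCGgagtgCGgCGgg

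The window held 36 CG dinucleotides and 76.0% G or C, at the 97.8th percentile of CG count among 32851 mouse promoter windows of the same length, whose median was 6. Starts were found for 7 of the 10 genes. Hs6st1 had 37 CG dinucleotides in the same window, while both listed starts of Ndst3 had few, at 1 and 3. The 4 octamers bound by Capicua (CIC), a repressor that ATXN1 is known to bind, were searched on both strands. No match was found in the windows of these 7 genes, and 3.19% of all windows held one. At that share no match was the likely outcome in so few windows, and binding by CIC was not tested.

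Hs6st3 encodes one of the 6-O-sulfotransferases. In PCs its level was 332, 376 and 528 CPM in SCA1 mice 1, 2 and 3 and 101, 60.3 and 51.2 CPM in WT mice 1, 2 and 3. Every SCA1 mouse lay above every WT mouse. These levels rest on 840, 406 and 922 UMIs in SCA1 and on 327, 50 and 57 in WT mice. The means were 412 ± 103 CPM (SD, n = 3) and 70.8 ± 26.5 CPM (SD, n = 3), and the log2 fold change fitted with a batch term was 2.37 (SE 0.31), the third highest of 9821 genes.

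**Figure D1:**
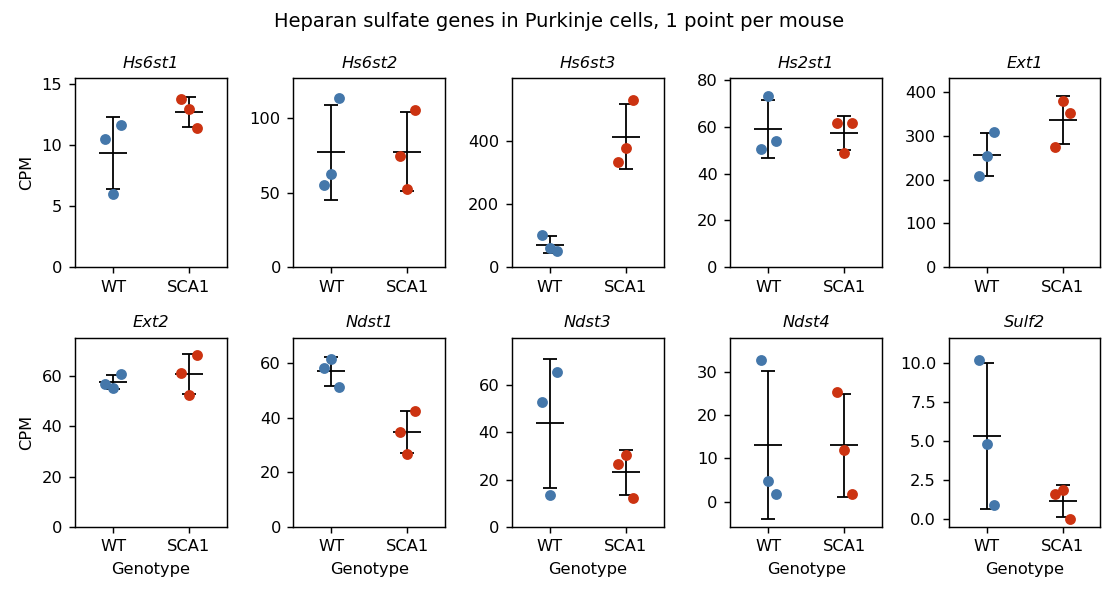
Level in Purkinje cells of each of the 10 genes, in CPM (linear axes from 0), for the 3 WT and the 3 SCA1 mice. Points are mice, bars the mean and lines the SD. Hs6st3 was 332 to 528 CPM in SCA1 and 51.2 to 101 CPM in WT mice. Ndst1 is the other gene among those tested whose groups do not overlap, where 14.6% of all genes tested had no overlap.

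The libraries fall in 2 batches by their library numbers, with mouse 1 of each genotype in the first. Within the first batch the SCA1 mouse had 3.29 times the level of the WT mouse (1 against 1), and within the second the SCA1 mice had 8.11 times that of the WT mice (2 against 2). In the first batch, 1 PC nucleus of WT mouse 1 carried 77385 UMIs, and its expression cluster consisted mostly of Slc17a6.Nrgn neurons. This nucleus held 145 of that mouse's 327 Hs6st3 UMIs. When nuclei were required to sit in a cluster of their own label, the WT mice had 58.3, 45.6 and 51.2 CPM, and the log2 fold change was 2.78. Granule markers summed to 25.8 to 176 CPM in SCA1 and 32.5 to 239 CPM in WT PCs, so both genotypes overlapped in the level of this abundant neighbour. Markers of Golgi cells, the type whose label Lgi2 had the highest Hs6st3, summed to 1.65 to 13.9 CPM in SCA1 and 3.59 to 14.2 CPM in WT PCs, against 546 to 835 CPM in Lgi2 neurons.

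A UMI of Hs6st3 was found in 72.3%, 46.2% and 79.3% of PC nuclei of SCA1 mice and in 43.4%, 36.6% and 27.6% of those of WT mice. Nuclei with 10 or more UMIs made up 51 of 146 in SCA1 and 9 of 146 in WT mice. PC nuclei were much deeper than glia, so each nucleus of at least 3000 UMIs was also thinned to 3000 UMIs. Shallower nuclei were left out. In WT mouse 2 this kept 35 of 41 PC, 80 of 135 BG and 1385 of 5770 granule nuclei, so its shares describe its deeper nuclei. The shares were then 33.8%, 35.3% and 50.0% in SCA1 PCs and 5.26%, 11.4% and 12.0% in WT PCs. At that depth BG of the WT mice, a glial type in which the gene was near its lowest level, had 6.10%, 5.00% and 2.41%, and granule neurons of all mice had 42.0% to 55.4%. The share of PCs was below that of BG in WT mouse 1 and above it in WT mice 2 and 3. The shares of SCA1 PCs lay above both and overlapped with the granule neurons.

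**Figure D2:**
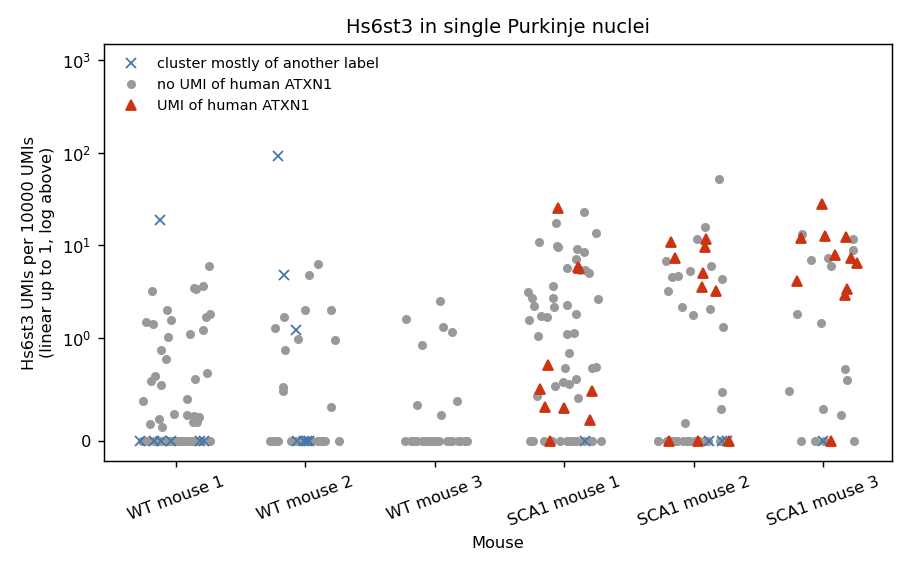
Hs6st3 UMIs per 10000 UMIs in each Purkinje nucleus of the 6 mice; red triangles are nuclei with a human ATXN1 UMI, blue crosses nuclei whose cluster belongs mostly to another label, grey points all others. Of the nuclei with human ATXN1, 7 of 10 in SCA1 mouse 1, 3 of 10 in mouse 2 and 1 of 11 in mouse 3 lie under 1 UMI per 10000 UMIs, and the highest nucleus of mouse 2 has no human ATXN1 UMI. The median nucleus is at 0 in all 3 WT mice and in SCA1 mouse 2.

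The transgene itself was seen as UMIs of human ATXN1. PCs of the SCA1 mice held 12, 15 and 19 such UMIs, spread over 31 of 146 nuclei, and PCs of the WT mice held 0, 0 and 0. Summed over nuclei, the levels of Hs6st3 with and without a human ATXN1 UMI were 489 CPM in 10 nuclei with and 301 CPM in 55 without in mouse 1, 563 CPM in 10 and 291 CPM in 42 in mouse 2, and 847 CPM in 11 and 318 CPM in 18 in mouse 3. All 3 sums lay in the same direction, but in mouse 1 the direction came from 1 nucleus. That nucleus held 153 of the 207 Hs6st3 UMIs of its group, 7 of the 10 nuclei with human ATXN1 were under 100 CPM, and the median nucleus had 49.3 CPM with and 106 CPM without human ATXN1. In mice 2 and 3 the median nucleus was higher with it, at 433 against 0 CPM and 731 against 64.1 CPM. The log2 fold change of the sums was 0.89 with mouse as a block, given with no test since Hs6st3 was chosen on the counts of these nuclei. Without the nucleus of most Hs6st3 UMIs in each group of each mouse, the levels with and without were 149 and 261 CPM in mouse 1, 459 and 253 CPM in mouse 2 and 699 and 259 CPM in mouse 3. The log2 fold change was then 0.44. These nuclei were picked by their Hs6st3 UMIs, and 1 nucleus weighs more in a group of 10 or 11 than in one of 55, 42 or 18, so a smaller difference is built into this choice.

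Nuclei with the human UMI were also deeper, with a median of 41307 against 37282 UMIs in mouse 1, 34274.5 against 7287.5 in mouse 2 and 58288 against 56243.5 in mouse 3. Restricted to nuclei of at least 10000 UMIs, a limit chosen after seeing the data, the log2 difference was 0.88, again with no test. Human ATXN1 is a sparse readout, so nuclei without a UMI of it may still carry the transgene. Purkinje markers summed to 11127 and 13609 CPM with and without it in mouse 1, 11298 and 12340 CPM in mouse 2, and 11889 and 17452 CPM in mouse 3, lower in all 3 where Hs6st3 was higher. Their part in the difference was not tested. Of the 7 other genes that could be tested, none was called by edgeR's quasi-likelihood test with mouse as a block (0 of 7, lowest adjusted p 0.091, 1 at an unadjusted p under 0.05), where 1.46% of 7817 genes were called. That value was Ndst3, an N-sulfotransferase, at -1.50 (SE 0.42), whose level was 16.5, 8.94 and 5.77 CPM with and 28.5, 40.3 and 16.1 CPM without human ATXN1. Ndst3 was highest in granule neurons. Granule markers summed to 118 and 188 CPM with and without it in mouse 1, 80.4 and 113 CPM in mouse 2, and 33.2 and 20.9 CPM in mouse 3. The part of granule RNA in the Ndst3 difference was not tested. Ndst4, also not called, had 77.9, 0 and 0 CPM with and 14.7, 17.5 and 2.85 CPM without it in mice 1, 2 and 3.

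Outside PCs, Hs6st3 was far higher in some neuron classes than in glia. In WT mice it was highest in Lgi2 inhibitory neurons, at 1264, 1164 and 2007 CPM in mice 1, 2 and 3, and in Slc17a6.Nrgn neurons, at 1241, 1150 and 1926 CPM. These types overlapped with each other and lay above Chrm2 neurons, which had 636, 526 and 817 CPM. Granule neurons had 303, 336 and 539 CPM. Nefh and Rab3b neurons came next, at 254 to 321 CPM and 170 to 370 CPM, and both overlapped with granule neurons. WT PCs stood below these, and every type under them was glial, Dcn.Nnat, Sln or Cadm1. Some of these neuron labels did not match the clusters. None of the 12 Lgi2 nuclei of WT mouse 3 or the 22 Slc17a6.Nrgn nuclei of WT mouse 2 sat in a cluster mostly of their label. The same held for all Chrm2 and Rab3b nuclei of the WT mice.

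VA had 47.0 to 51.6 CPM, OL 15.5 to 48.2 CPM and BG 20.1 to 36.6 CPM. Dcn.Nnat cells had 21.0, 0 and 4.20 CPM, the lowest mean of all types. In the order of the WT means the ranges of neighbours overlapped, except for Slc17a6.Nrgn above Chrm2 neurons and Rab3b neurons above PCs. Within the same mouse, every WT mouse also had Lgi2 above Slc17a6.Nrgn, Chrm2 above granule and granule above Nefh neurons. Likewise VA lay above OL and Cadm1 neurons above Dcn.Nnat cells. PCs were above VA in every WT mouse, but not in WT mouse 2 with label and cluster matching (45.6 against 48.3 CPM). Each type was then tested against granule neurons in WT mice, a test in which edgeR called 15.7% of all genes higher and 15.8% lower over the 12 types. Hs6st3 was called higher in Lgi2 (log2 1.87, SE 0.31) and Slc17a6.Nrgn neurons (1.86, SE 0.31). It was called lower in Dcn.Nnat (-5.36), Cadm1 (-4.17), Sln (-4.08), BG (-3.73), OL (-3.36) and VA (-3.03). The filter of this fit on low counts reads all types together. Dcn.Nnat and Sln held only 46 and 20 UMIs of Hs6st3 over all mice, so their values rest on few molecules and on the filter being passed in other types. In PCs the difference from granule neurons was -1.89 in WT mice (-2.32 with label and cluster matching) and 0.21 in SCA1 mice, given as a description.

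**Figure D3:**
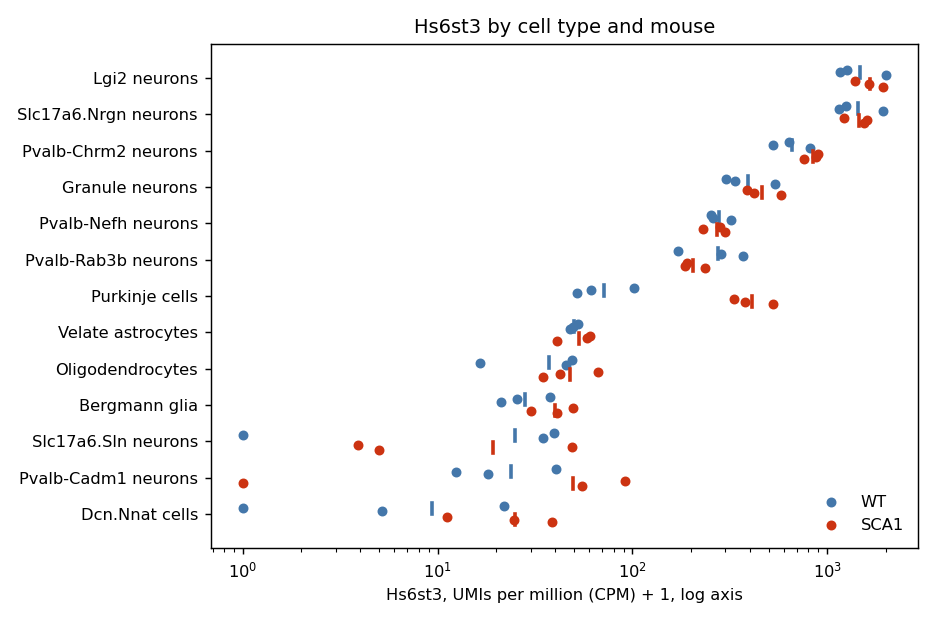
Hs6st3 level as CPM + 1 on a log axis in the 13 cell type labels, for the 3 WT and 3 SCA1 mice; points are mice and bars the mean of a genotype. The 2 groups overlap in every type except Purkinje cells, where SCA1 mice come to the level of granule neurons.

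As a ratio to the granule neurons of the same mouse, which share its library, Hs6st3 in PCs was 0.858, 0.898 and 0.919 in SCA1 mice and 0.333, 0.179 and 0.0949 in WT mice. The SCA1 ratios of CPM lie below 1, while the fitted log2 difference in SCA1 mice was 0.21, so its sign depends on how levels are scaled. With label and cluster matching, which leaves out the single nucleus of WT mouse 1 named above, the WT ratios were 0.195, 0.136 and 0.0956. The same ratio in Lgi2 neurons was 3.57, 3.93 and 3.34 in SCA1 and 4.18, 3.46 and 3.72 in WT mice, with overlap. SCA1 and WT mice overlapped in the level of Hs6st3 in all 12 labels other than PCs. The gene passed the filter on low counts in 10 of them, where log2 fold changes ran from -0.36 to 1.13, 7 above 0 and 3 below, and none was called by edgeR (lowest adjusted p 1.00).

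The pattern of Hs6st3 over the 13 labels in WT mice was compared with that of 13958 genes by the Pearson correlation of mean log2(CPM + 1), as a description over labels that share libraries. Rsph14 was most alike (r = 0.960), followed by Slc2a6 (0.906), Tnfsf13b (0.898), AC135859.1 (0.891) and Ptcd2 (0.885). Genes were compared if their WT mean reached 10 CPM in some label. The highest WT means of Rsph14, Slc2a6, Tnfsf13b and AC135859.1 were 12.1, 12.9, 11.2 and 10.7 CPM, close to that limit. Ptcd2 ran only from 11.8 to 22.0 CPM, while Hs6st3 reached 1478 CPM, so these likenesses rest on low levels. Among the enzymes Hs6st2 was the nearest to Hs6st3, at r = 0.596, rank 935 of the 13958 genes.

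The other 6-O-sulfotransferases had smaller differences between genotypes in PCs than Hs6st3, which was chosen for its rise there. Hs6st1 was low there, at 13.8, 13.0 and 11.5 CPM in SCA1 and 10.5, 6.03 and 11.7 CPM in WT mice. Hs6st2, an X-linked gene at chrX:51387212-51681856 on the - strand, had 74.7, 52.8 and 105 CPM in SCA1 and 54.9, 62.7 and 114 CPM in WT mice. Both genes overlapped between genotypes, with log2 fold changes of 0.22 (SE 0.36) and -0.12 (SE 0.33). Across types in WT mice, Hs6st2 was higher in neurons than in glia, at 150 to 261 CPM in Slc17a6.Nrgn and 157 to 213 CPM in Lgi2 neurons but 5.92 to 18.3 CPM in BG. Dcn.Nnat cells, with a mean of 87.8 CPM, lay among the neurons, above PCs and Sln neurons. Against granule neurons it was called higher in Slc17a6.Nrgn (0.95) and Lgi2 (0.90) neurons and lower in BG (-2.83), OL (-2.20) and VA (-2.14). Hs6st1 was called in Lgi2 neurons alone, at 0.81 (adjusted p = 0.048, edgeR). Lgi2 neurons thus were called higher than granule neurons for all 3 of the 6-O-sulfotransferases. The Hs6st1 difference was 0.11 in SCA1 mice in place of WT mice.

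The 2-O-sulfotransferase Hs2st1 had WT means from 59.3 CPM in PCs to 138 CPM in BG, and no type was called against granule neurons in WT mice (0 of 12, lowest adjusted p 0.134, edgeR). In SCA1 mice, where 19.0% of all tests were called higher and 20.0% lower, Hs2st1 was called higher in BG (0.55) and Slc17a6.Nrgn neurons (0.47) and lower in Dcn.Nnat cells (-0.42), Lgi2 neurons (-0.42) and PCs (-0.42). PCs had the lowest mean of the 13 types. The level in PCs was 61.7, 49.1 and 61.8 CPM in SCA1 and 50.6, 73.5 and 53.9 CPM in WT mice. The groups overlapped, at a log2 fold change of -0.19 (SE 0.24).

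The chain polymerases were present in every type. Ext1, at chr15:53064038-53346159 on the - strand, had 275, 380 and 352 CPM in SCA1 and 209, 254 and 309 CPM in WT PCs (log2 0.20, SE 0.19), with overlap. In WT mice it was highest in Slc17a6.Nrgn neurons, at 589, 401 and 878 CPM, and in granule neurons, at 308, 477 and 611 CPM. It was called lower than in granule neurons in 10 of 12 types, by -0.68 to -1.32 where called. Ext2 was nearly even, with WT means between 52.0 CPM in VA and 89.0 CPM in Sln neurons, and was called lower in BG (-0.48) and VA (-0.62) only. In PCs it had 61.3, 52.8 and 68.7 CPM in SCA1 and 56.8, 55.5 and 61.0 CPM in WT mice.

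The N-deacetylase/N-sulfotransferases differed in the type where each was highest. Ndst3 was highest in granule neurons: WT granule neurons had 629, 780 and 1014 CPM, above every other type in every mouse, and edgeR called it lower in 11 of the 12 types, from -1.04 in BG to -5.01 in Dcn.Nnat cells. Sln neurons, BG and Slc17a6.Nrgn neurons followed, with WT means of 455, 372 and 322 CPM. PCs had the second lowest WT mean, at 52.8, 13.3 and 65.5 CPM. Ndst4, at chr3:125404076-125728899 on the + strand, was highest in Slc17a6.Nrgn neurons, with 525, 354 and 1032 CPM in WT and 503, 658 and 737 CPM in SCA1 mice. Every other type had at most 95.0 CPM in any mouse. The difference from granule neurons, which had 0.842 to 5.41 CPM in WT mice, was 7.97 on the log2 scale (SE 0.56, adjusted p = 3.1e-13, edgeR).

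Ndst4 was also called higher in Lgi2 (4.23), OL (3.41), Chrm2 (3.38) and PCs (2.90). In Chrm2 neurons the WT mice differed widely (25.1 ± 35.5 CPM, SD, n = 3), and no nucleus there sat in a cluster mostly of that label. In PCs of WT mouse 1 the single nucleus named above held 93 of 106 Ndst4 UMIs, and without such nuclei that mouse had 4.16 CPM in place of 32.7 CPM. The mean over the WT mice was then 3.22 CPM in PCs against 1.84 CPM in granule neurons. Without WT mouse 1 the log2 difference in PCs was 1.60 and not called (adjusted p = 0.226, edgeR). In SCA1 mice, where that nucleus is absent, Ndst4 was called higher in PCs too (2.54, SE 0.51, adjusted p = 8.2e-05, edgeR). Its level was uneven there as well, with 77.9 CPM in the 10 PC nuclei of SCA1 mouse 1 with human ATXN1 and 14.7 CPM in the 55 without. Ndst1 was lowest in Sln and granule neurons. Its WT mean was 13.9 CPM in Sln neurons, 23.3 CPM in granule neurons, 76.8 CPM in Dcn.Nnat cells, 60.8 CPM in BG and 57.0 CPM in PCs. It was called higher than in granule neurons in 9 of 12 types, by 1.84 in PCs and 1.44 in BG.

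**Figure D4:**
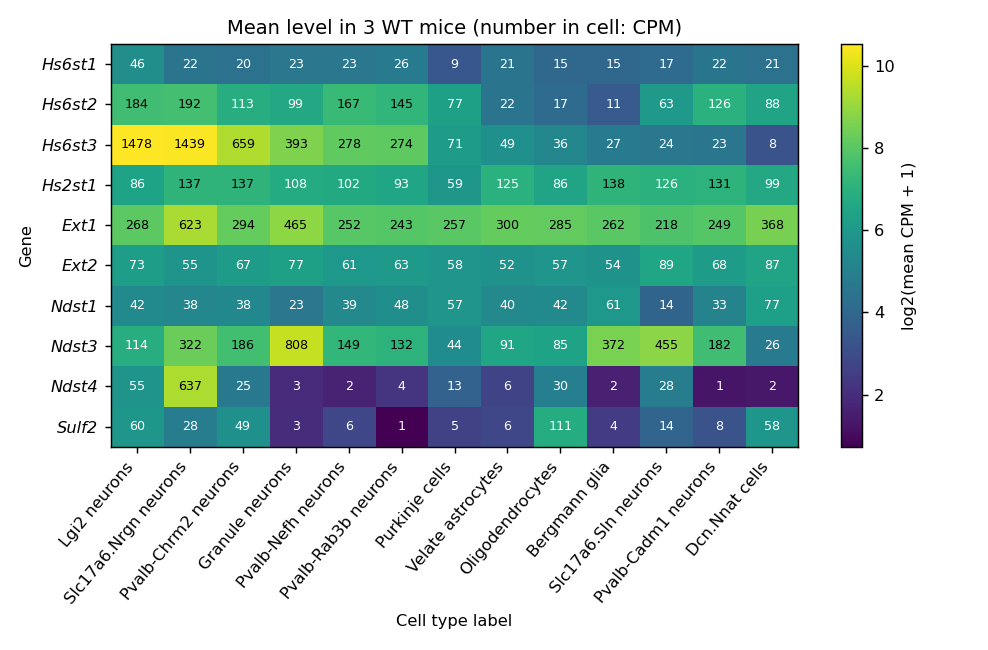
Mean level of each of the 10 genes in CPM over the 3 WT mice, in the 13 cell type labels, as a heat map with the value in each field. Ndst3 is highest in granule neurons, Ndst4 in Slc17a6.Nrgn neurons, Sulf2 in oligodendrocytes and Hs6st3 in Lgi2 and Slc17a6.Nrgn neurons.

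Between genotypes, Ndst1 was the gene nearest to a call in PCs. Its level was 34.8, 26.8 and 42.4 CPM in SCA1 and 58.3, 61.5 and 51.2 CPM in WT mice, and every SCA1 mouse was below every WT mouse. Groups did not overlap for 14.6% of all genes tested in PCs. The log2 fold change was -0.87 (SE 0.26), which did not pass (adjusted p = 0.371 by edgeR, 0.296 by DESeq2). Its gene overlaps Rps14 on the other strand. Ndst1 was lower without overlap in BG too, at 51.4, 42.4 and 54.0 CPM against 57.1, 66.2 and 59.2 CPM, and in Slc17a6.Nrgn neurons, at 28.8, 23.0 and 24.5 CPM against 37.1, 40.1 and 35.9 CPM. Groups did not overlap for 4.94% of all genes in BG and 5.38% in Slc17a6.Nrgn neurons, and neither change was called (log2 -0.33 and -0.54). Ndst3 in PCs had 26.5, 30.5 and 12.0 CPM in SCA1 and 52.8, 13.3 and 65.5 CPM in WT mice, with overlap (log2 -1.19, SE 0.49, adjusted p = 0.666, edgeR). Without the filter on low counts it was called (adjusted p = 0.013, edgeR). Ndst4 in PCs had 25.3, 12.0 and 1.72 CPM in SCA1 and 32.7, 4.82 and 1.80 CPM in WT mice. With label and cluster matching, the WT mice had 4.16, 3.69 and 1.80 CPM and the SCA1 mice 25.3, 12.2 and 1.72 CPM, so SCA1 mice 1 and 2 were above the WT mice in this gene of Slc17a6.Nrgn neurons. Its part in the level of Hs6st3 in PCs was not tested.

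Sulf2, the endosulfatase, was highest in OL, at 90.6, 111 and 130 CPM in WT and 104, 105 and 149 CPM in SCA1 mice. It exceeded granule neurons there by 5.27 on the log2 scale (SE 0.44), and was also called higher in Lgi2 (4.27), Dcn.Nnat (3.96), Chrm2 (3.93) and Slc17a6.Nrgn (3.27) cells and, less so, in PCs (1.51) and Nefh neurons (1.34). In SCA1 mice the difference was -1.17 in PCs and 0.64 in Nefh neurons, neither of them called (adjusted p = 0.285 and 0.321, edgeR). In WT mice with label and cluster matching it was 1.22 and 1.13, again not called (adjusted p = 0.117 and 0.157, edgeR). PCs held little of it, at 1.58, 1.85 and 0 CPM in SCA1 and 10.2, 4.82 and 0.898 CPM in WT mice, of which 12 of 33 UMIs of WT mouse 1 came from the same single nucleus. It did not pass the filter for the test between genotypes in PCs. In Chrm2 neurons SCA1 mice had 78.1, 62.3 and 70.9 CPM against 60.3, 44.8 and 42.9 CPM, without overlap and without a call (log2 0.53), where 6.81% of all genes had no overlap.

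Over the 10 genes and the 12 types, 26 of 119 tests against granule neurons in WT mice were called higher (21.8%) and 32 lower (26.9%), leaving out Hs6st3 in PCs, against the shares of all genes given above. The filter of that fit reads all types together, so these counts include genes with few UMIs in the type itself. Between genotypes no gene was called. In PCs 0 of the 8 genes tested besides Hs6st3 passed by edgeR, where 0.0% of 9821 genes did. At an unadjusted p under 0.05 there were 2 of the 8, Ndst1 and Ndst3, and 653 of all genes. With the mouse number as a block, 172 of all genes and still 0 of the 8 were called, and without the filter on low counts 223 of all genes and Ndst3 were. DESeq2 called none of the 8 and 1.38% of 4799 genes. Of the 8, 1 had groups that did not overlap (Ndst1), where 14.6% of all genes tested had. Over all 13 types, edgeR called 0 of 110 tests other than Hs6st3 in PCs (lowest adjusted p 0.371), where 0.00156% of the tests of all genes were called. There were 5 at an unadjusted p under 0.05, or 4.55%, against 1.87% of the tests of all genes. These 5 were Ndst1 and Ndst3 in PCs, Ndst1 in Slc17a6.Nrgn neurons, and Ndst4 in Chrm2 neurons (1.17) and OL (-1.18).

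**Figure D5:**
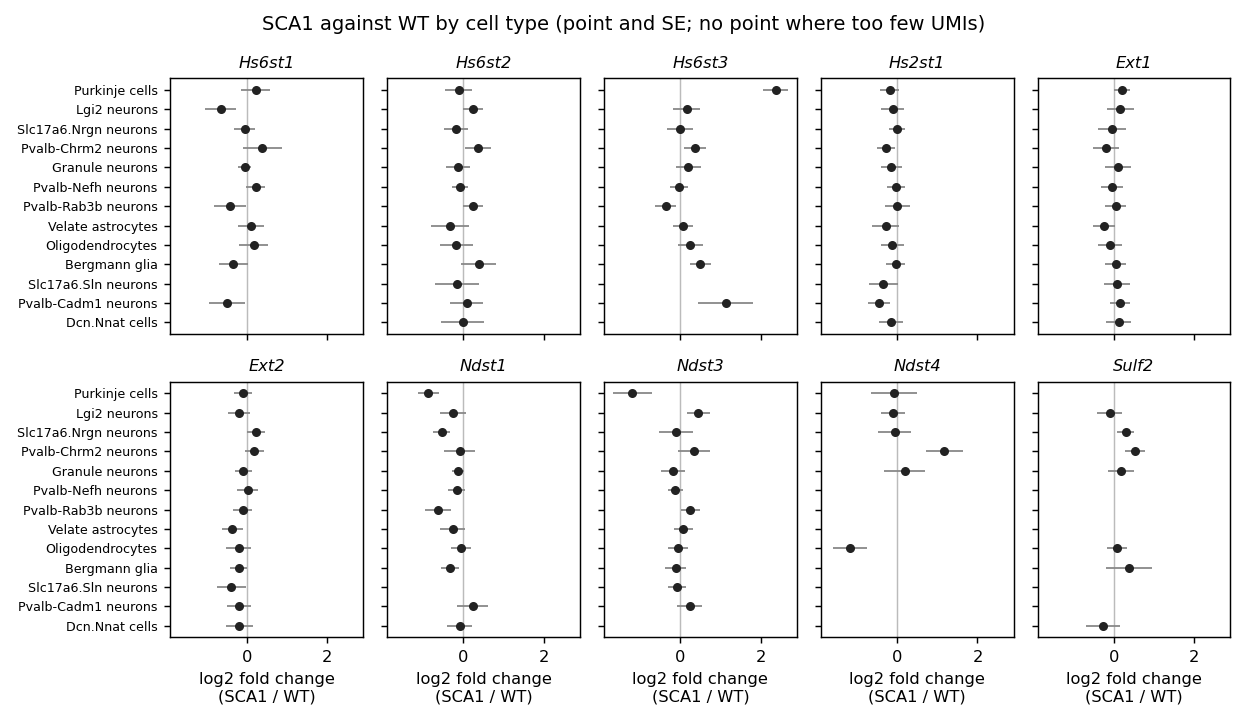
Log2 fold change of SCA1 against WT mice (line: SE derived from the edgeR test) of the 10 genes in the labels where each passed the filter on low counts. Hs6st3 in Purkinje cells, for which the gene was chosen, is at 2.37 and is shown as a description. None of the other points passed the test, and edgeR called 0 of 9821 genes in Purkinje cells.

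Whether the difference between genotypes in a type departed from that in granule neurons was asked with an interaction term. With Hs6st3 in PCs left aside as a description, edgeR called 0 of 119 such tests over 12 types, where 0.00364% of the tests of all genes were called. Of the 119, 5 had an unadjusted p under 0.05, against 4376 of the 192146 tests of all genes (2.28%). The filter of this fit also reads the granule neurons, and 19 of the 119 tests were of genes that did not pass it in the type itself. That holds for 3 of the 5, Sulf2 in PCs and Rab3b neurons and Hs6st3 in Sln neurons, whose values are not given for that reason. The others were Hs6st3 in Rab3b neurons at -0.55 (SE 0.21) and Ndst4 in Chrm2 neurons at 1.21 (SE 0.50), each with an adjusted p of 1.00.

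The wider pathway was described from a list of 57 other genes of linker and sulfate donor supply, chain synthesis and modification, core proteins, lysosomal breakdown and receptors. None passed between genotypes in any type. In PCs 32 were tested by edgeR, 2 had an unadjusted p under 0.05, and the median log2 fold change was -0.13, against 0.02 for all genes. The nearest was Col18a1, which encodes the heparan sulfate proteoglycan collagen XVIII, at -1.08 (SE 0.20, adjusted p = 0.123, edgeR). Next came Hpse2, a relative of heparanase, at -1.83 (SE 0.45, adjusted p = 0.238, edgeR). The lowest p among the receptors was that of Lrrtm3, a synaptic adhesion protein that binds heparan sulfate, at -1.25 (adjusted p = 0.813, edgeR). The median of the 8 receptors tested was 0.08, above 0. Further values were -0.59 for Xylt1, which starts the linker, -0.63 for Extl2, -0.54 for the glypican Gpc6, a core protein like Col18a1, and -0.45 for the lysosomal enzyme Hgsnat. Their adjusted p-values were 0.812 to 0.956 by edgeR.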

How the data were processed

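Nuclei of frozen or fresh whole cerebellum from 3 SCA1 and 3 WT mice gave 1 droplet library each. The authors counted UMIs with Cell Ranger 5.0.1 (their processing notes also list 4.0.0 and 6.0.1), introns included, against mm10 with human ATXN1 added, removed debris by DIEM with a minimum of 1000 UMIs (3000 in the first run), and labelled each nucleus with SingleR and Seurat 4.0.4. The deposited counts hold 45473 nuclei, fewer than the study states, and 24 labels. No doublet caller was run here.

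The counts were summed per mouse and label where every mouse had 10 or more nuclei, and tested with edgeR 4.0.16 (R 4.3.3): genotype with batch, quasi-likelihood, TMM factors, filterByExpr, Benjamini-Hochberg over all genes of a label, called at an adjusted p of 0.05. Batch was read from the library numbers. Types were compared with granule neurons within mice, and nuclei with and without human ATXN1 within SCA1 mice. That last test was planned and run for Hs6st3 too, but its p-values are not given, since the gene was chosen on these nuclei. The p-values of the genotype fits measure the spread between mice, 3 per group. The other fits have mouse as a term, so their p-values measure the spread that remains within mice. In the fit of types against granule neurons that estimate is shared by all 13 labels. Thinned shares and single counts cover counting error only. Each SE of an edgeR fit was derived as the absolute log2 fold change over the square root of the F statistic. Levels are CPM of the sums. DESeq2 1.42.0, other factors and filters, stricter nuclei and left-out mice were alternatives. All 10 genes are named, with the pathway genes of lowest p where none was called and the 5 genes most like Hs6st3. The genes and lists were chosen with earlier results of these data known. Library pairs shared 7 to 44 cell barcodes, at most 0.421% of the smaller library. The edgeR steps were tested on simulated data.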

Additional observations from a re-analysis of the deposited data

Results flagged for a closer look

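Some values moved apart without overlap between SCA1 and WT mice in opposite directions in different cell types, and the difference between types was not tested for these pairs. For Ndst1, the log2 ratio of the mean SCA1 to the mean WT level was -0.30 in BG, -0.72 in PCs and -0.57 in Slc17a6.Nrgn neurons, the SCA1 mice all lower, but 1.34 in Sln neurons, the SCA1 mice all higher. Groups did not overlap for 4.94% of genes tested in BG, 14.6% in PCs and 5.38% in Slc17a6.Nrgn neurons. Sln neurons held 9, 5 and 8 UMIs of Ndst1 in SCA1 mice 1, 2 and 3 and 5, 1 and 1 in the WT mice, so that value rests on few molecules, and 7.12% of genes tested there had groups that did not overlap. For Sulf2 the same ratio was -1.42 in Cadm1 neurons, at 6.58, 0 and 2.86 CPM in SCA1 and 6.62, 11.4 and 7.32 CPM in WT mice, and 0.51 in Chrm2 neurons. In Cadm1 neurons the nearest SCA1 and WT values were 6.58 and 6.62 CPM, and 5.65% of genes tested there had groups that did not overlap. None of these was called by edgeR between genotypes, and Ndst1 in Sln and Sulf2 in Cadm1 neurons did not pass the filter on low counts.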

How the results depend on the processing

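Hs6st3 in PCs, chosen for its rise there, had log2 fold changes of 2.31 (mouse number as a replicate block), 2.36 (RLE factors), 2.38 (DESeq2), 2.39 (no filter), 2.48 (nuclei of at least 3000 UMIs), 2.78 (label and cluster both matching), and from 2.08 without SCA1 mouse 3 to 2.85 without SCA1 mouse 1. Inside SCA1 mice, the difference between nuclei with and without human ATXN1 was 0.72 to 1.05 when a mouse was left out. Without the nucleus of most Hs6st3 UMIs in each group it was 0.44. No test is given for either. Without the filter on low counts, 1 of the other genes was called in PCs (Ndst3, -1.19, adjusted p = 0.013, edgeR). Its level in WT mouse 2 fell where label and cluster had to match, as given above. All genes called in PCs numbered 0 in the reported fit, 223 without a filter, 66 by DESeq2, 8 with RLE factors, 1 with label and cluster matching, 6 without WT mouse 2, 2 without WT mouse 3 and 172 with the replicate block (189 with both, an alternative chosen after seeing the data, as were the limit of 10000 UMIs and the leaving out of single nuclei). The deviations of same-numbered mice correlated in PCs at 0.673, 0.067 and 0.503, not all above 0.1. All 3 were above 0.1 in 6 of the 13 types, granule neurons among them, and neither the labels nor the methods say what a number marks. The block called none of the 10 genes in any type, Hs6st3 in PCs left aside.

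Calls against granule neurons in WT mice fell from 26 higher and 32 lower to 6 and 19 where label and cluster had to match, which left fewer types with enough nuclei, and ranged from 17 to 23 and 23 to 33 with a WT mouse left out (17 higher without WT mouse 2, the shallowest). Signs turned for genes with small changes in PCs: with a mouse left out Hs6st2 ran from -0.40 to 0.26, Ext2 from -0.23 to 0.036 and Ndst4 from -0.61 to 0.77, and Ndst4 was 0.18 with DESeq2. Against granule neurons, Hs6st3 and Sulf2 in PCs were 0.21 and -1.17 in SCA1 in place of WT mice. The interaction called 0 to 1 genes in Cadm1 neurons with a mouse left out (1 without WT mouse 1). The causes were not tested. Low counts limit Sulf2, Hs6st1 and Ndst4 in PCs and the 5 genes in Sln and 2 in Cadm1 neurons that did not pass the filter.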
